A study of Homo sapiens with 48 samples.

Results

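The response of KU1919, an established human bladder carcinoma cell line, to the EZH2 inhibitor CPI-0209 was measured by RNA sequencing. Of 48 libraries from 8 bladder cancer lines, the 6 labelled KU1919 were used: 3 from cells given CPI-0209 and 3 from cells given the vehicle DMSO. The inhibitor was used at 250 nM and the cells were harvested after 4 days. Both groups share the line and its RPMI1640 medium with serum. The other 42 libraries, from HT1197, HT1376, SW780, T24, 639V, TCCSUP and VMCUB given the same dose for the same time, were used to set the KU1919 response beside that of the other lines and in 1 alternative fit. The other lines grew in MEM, DMEM or McCoy's 5A, so line and medium cannot be told apart. Nothing in the labels says that the libraries of a group came from separate cultures, so p-values measure the spread between these libraries, which may be technical.

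The methyltransferase EZH2 works within PRC2, a Polycomb repressive complex, which places methyl groups on lysine 27 of histone H3. The mark is found at silent genes, many of them regulators of embryonic development, and it is read by a further complex, PRC1. A catalytic inhibitor leaves the EZH2 protein in place and lets the mark decay as cells divide, so genes held silent by PRC2 can become transcribed. In the bladder, urothelial cells range from basal cells with KRT5 and TP63 to luminal cells with uroplakins, PPARG and GATA3.

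Levels are given in CPM, counts scaled to a common library size by TMM, as mean ± SD with n = 3 libraries per group. Changes are given as log2 ratios (CPI-0209 over DMSO, fitted fold changes ± SE), and a gene was called where edgeR's quasi-likelihood test, adjusted by the Benjamini-Hochberg method over all tested genes, gave a value under 0.05. "Rose" and "fell" are used for called genes. The comparison within KU1919 was repeated under 14 alternative settings, and the largest adjusted p over them is given beside every gene that lost its call under at least 1 of them. Since RNA was taken from whole cultures, fewer cells expressing a gene and less RNA of it per cell cannot be told apart.

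One CPI-0209 library stood apart from the others. CPI-0209 replicate 1 correlated with the 2 other CPI-0209 libraries at Pearson r of 0.981 and 0.979 in log2 CPM across genes, against 0.992 between those 2 and 0.993 to 0.995 among the DMSO libraries. Of 11356 genes with a mean of at least 5 CPM, it lay at least 2-fold below all 5 other libraries for 172 and at least 2-fold above them for 9, while no other library lay outside the rest for more than 2. The departure moved with transcript length. Relative to the mean of the DMSO libraries, its median log2 ratio was 0.30 in the sixth of genes with the shortest summed exons (207 to 2810 bases) and -0.43 in the sixth with the longest (9129 to 118976 bases). In CPI-0209 replicates 2 and 3 the same medians lay between -0.05 and -0.01. The 172 low genes had a median exon length of 13054 bases, against 5262 bases for all 11356. SOX9, a transcription factor of progenitor cells, had 0.802, 40.4 and 15.1 CPM in the 3 CPI-0209 libraries and 53, 27.6 and 29.4 CPM in the 3 DMSO libraries. NOTCH1, the receptor, had 2.38, 10.9 and 15.6 CPM in the 3 CPI-0209 libraries and 11.3, 10.4 and 9.59 CPM in the 3 DMSO libraries. GRHL2, an epithelial transcription factor, had 2.19, 15.4 and 19.7 CPM in the 3 CPI-0209 libraries and 10.2, 16.1 and 13.3 CPM in the 3 DMSO libraries. In the opposite direction, IGF2R, the receptor that clears insulin-like growth factor 2, had 88.5, 25.6 and 23.4 CPM in the 3 CPI-0209 libraries and 24.1, 27.6 and 26.4 CPM in the 3 DMSO libraries. For SOX9, NOTCH1, GRHL2 and IGF2R the outlying value belonged to CPI-0209 replicate 1, and none of these 4 genes was called. They were among the genes chosen by the distance of that library from the others, not by length. Whether length accounts for their values was not tested. The library held 36628193 counts, within the 27267344 to 44971614 of the 6 libraries, and its mitochondrial share of 4.21% lay within the 4.15% to 4.44% of the CPI-0209 group, against 3.7% to 4.07% in the DMSO group. It was kept in the fit, and results are given without it wherever it changed them; the part it plays in any one result was not tested beyond that.

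**Figure D1:**
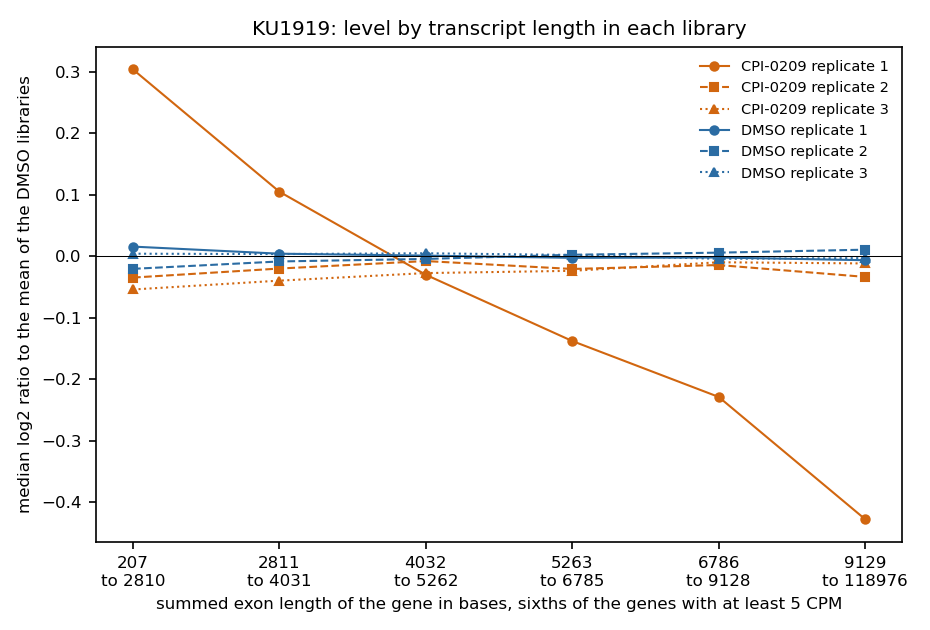
Median log2 ratio of each KU1919 library to the mean of the 3 DMSO libraries (y axis) over sixths of the 11356 genes with at least 5 CPM, ordered by summed exon length in bases (x axis). The line of CPI-0209 replicate 1 descends across the sixths, from 0.30 at the shortest to -0.43 at the longest, while the lines of the 5 other libraries stay close to 0.

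The drug's target was measured first. EZH2 (ENSG00000106462, chromosome 7, 148807383 to 148884321; positions are those of GENCODE 29 on GRCh38) had 102, 107 and 99.2 CPM in the 3 CPI-0209 libraries and 96.5, 98.6 and 103 CPM in the 3 DMSO libraries. The groups overlapped and the log2 fold change was 0.05 ± 0.07 (adjusted p = 0.723), and since CPI-0209 acts on the enzyme, the transcript is no check of its action. EED, the subunit that binds the methyl mark (ENSG00000074266, chromosome 11, 86244544 to 86278813), stood at -0.06 ± 0.08 (adjusted p = 0.669). SUZ12, the other core subunit (ENSG00000178691, chromosome 17, 31937018 to 32001045), stood at -0.22 ± 0.12 (adjusted p = 0.293), and EZH1, the related methyltransferase (ENSG00000108799, chromosome 17, 42700275 to 42745049), at -0.21 ± 0.15 (adjusted p = 0.428). Of 13 tested core and accessory PRC2 genes, 1 rose and 1 fell, with a median log2 fold change of -0.19. Among these 13 genes, 2 rose and 5 fell without CPI-0209 replicate 1, and 1 rose and 0 to 1 fell when 1 of the 5 other libraries was left out. The higher share, 7.69%, lies near that of all tested genes, of which 9.3% rose and 2.4% fell, or 18.4% and 14.3% without that replicate. EPOP, an accessory subunit that recruits elongin, rose by 1.20 ± 0.08 (adjusted p = 0.000179), with 34.5 ± 1.9 CPM with CPI-0209 and 15 ± 0.211 CPM with DMSO. PHF19, a Polycomb-like accessory subunit, fell by 0.31 ± 0.07 (adjusted p = 0.0348, up to 0.185 over the alternatives). Of 22 tested PRC1 genes, 4 rose and 1 fell, with a median log2 fold change of 0.03. Among these 22 genes, 8 rose and 1 fell without CPI-0209 replicate 1. BMI1, the RING-finger partner of the PRC1 ubiquitin ligase, rose by 0.96 ± 0.08 (adjusted p = 0.00056), with 100 ± 7.22 CPM with CPI-0209 and 51.7 ± 1.58 CPM with DMSO. The chromodomain subunits CBX2 and CBX8, which read the methyl mark and lie next to each other on chromosome 17, changed in the same direction. CBX2 rose by 1.05 ± 0.09 (adjusted p = 0.00064) and CBX8 rose by 0.72 ± 0.10 (adjusted p = 0.00348). PHC2, a Polyhomeotic subunit, fell by 0.48 ± 0.07 (adjusted p = 0.00536).

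CPI-0209 raised more genes than it lowered in KU1919. Of 16241 tested genes, 1510 rose, which is 9.3% of the genes tested, and 389 fell, which is 2.4%. Among changes of at least 2-fold the balance was wider, with 792 genes higher (4.88%) and 33 lower (0.203%). The genes that rose at least 2-fold started low: their median level with DMSO was 0.767 CPM, and 442 of the 792 (55.8%) were under 1 CPM with DMSO, against 15.9% of all tested genes. Part of this follows from the selection, since the DMSO level is the denominator of the fold change. The filter also keeps genes that were counted in either group alone. The 389 genes that fell had a median of 34.7 CPM with CPI-0209 and 48.9 CPM with DMSO. All 3 CPI-0209 libraries lay above all 3 DMSO libraries for 3155 tested genes (19.4%) and below them for 2977 (18.3%). The median log2 fold change over all tested genes was 0.01, and 4129 genes had an unadjusted p under 0.05.

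Counts of calls depended on single libraries. Without CPI-0209 replicate 1, 3047 of 16579 tested genes rose (18.4%) and 2375 fell (14.3%), so that 56.2% of the calls were upward, against 79.5% with it. These calls held 1507 of the 1510 higher genes and 387 of the 389 lower genes of the 6-library fit. Removing the transcript length trend from each library, a setting chosen after seeing the data, gave 1914 higher (11.8%) and 856 lower genes (5.28%), with 69.1% of calls upward. Leaving out DMSO replicate 1, 2 or 3 gave 858, 885 or 971 higher genes and 113, 113 or 116 lower genes, and leaving out CPI-0209 replicate 2 gave 1137 and 214. The number of genes at least 2-fold higher moved less, from 626 to 973 over the 6 fits that left out a library. No call of the 6-library fit changed direction under any alternative.

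**Figure D2:**
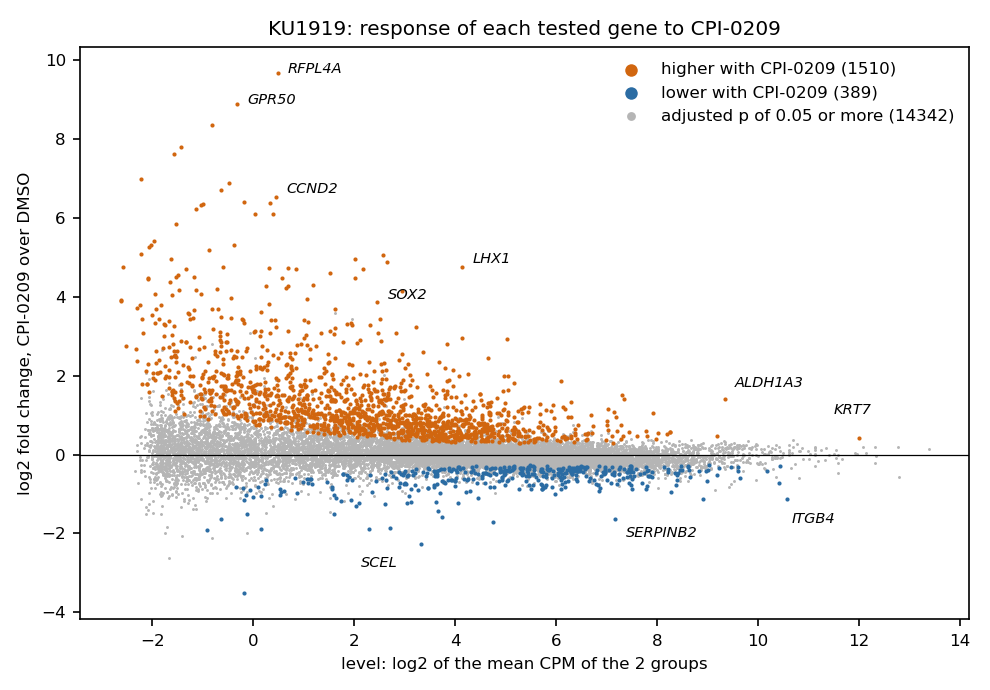
Log2 fold change of CPI-0209 over DMSO (y axis) against the log2 of the mean CPM of both groups (x axis), 1 point per tested gene, with 1510 genes higher in orange, 389 lower in blue and the rest in grey. Genes at least 2-fold higher had a median of 2.72 CPM with CPI-0209 and 0.767 CPM with DMSO, and those at least 2-fold lower 2.38 CPM with CPI-0209 and 5.98 CPM with DMSO, against medians of 19.6 and 18.8 CPM over all tested genes; fitted values of genes with 0 counts with DMSO, such as RFPL4A, depend on the prior count.

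The largest rises were in genes that were almost silent with DMSO. CCND2, which encodes cyclin D2, a partner of CDK4 and CDK6 (ENSG00000118971, chromosome 12, 4273772 to 4305350), had 2.7, 2.86 and 2.59 CPM in the 3 CPI-0209 libraries and 0.0452, 0.024 and 0 CPM in the 3 DMSO libraries. The groups were far apart, with 284 counts over the CPI-0209 group and 3 over the DMSO group, a ratio of 104-fold with a 95% counting interval of 35.1 to 505 (adjusted p = 0.00012). FOXF1, a forkhead transcription factor of mesenchyme (ENSG00000103241, chromosome 16, 86510527 to 86515418), had 2.06, 1.97 and 2.07 CPM in the 3 CPI-0209 libraries and 0.0226, 0.024 and 0.0345 CPM in the 3 DMSO libraries, a ratio of 78.1-fold with a 95% counting interval of 26.4 to 382 (adjusted p = 7.27e-05). EYA2, a coactivator and phosphatase of organ development, had 1.79, 1.07 and 1.41 CPM in the 3 CPI-0209 libraries and 0.0226, 0 and 0 CPM in the 3 DMSO libraries. Of its DMSO libraries 1 held the single count of that group, and the ratio was 167-fold with a 95% counting interval of 29.6 to 6660 (adjusted p = 0.000466). GPR50, an orphan receptor related to the melatonin receptors, had 0.989, 1.4 and 2.42 CPM in the 3 CPI-0209 libraries and 0, 0 and 0 CPM in the 3 DMSO libraries. It was at least 62.8-fold higher, against a floor of 3 counts over the DMSO group (adjusted p = 0.00481). RFPL4A, a ret finger protein-like gene, was at least 107-fold higher on the same floor, with 293 counts with CPI-0209 and 0 with DMSO, but it shares its sequence with the copy RFPL4AL1 and is uncertain. KCNA2, a voltage-gated potassium channel, differed by 144-fold with a 95% counting interval of 25.5 to 5750. CT55, a cancer/testis antigen, differed by 103-fold with a 95% counting interval of 28.1 to 856, and GFY, a Golgi protein of olfactory neurons, by 41.2-fold with a 95% counting interval of 13.8 to 203. CEACAM6, an adhesion glycoprotein of epithelia, had 2.09, 2.76 and 2.59 CPM in the 3 CPI-0209 libraries and 0, 0.072 and 0 CPM in the 3 DMSO libraries. Its DMSO counts all came from 1 library, and the ratio was 94.1-fold with a 95% counting interval of 31.9 to 459 (adjusted p = 0.000517).

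Among the further large rises, FABP4, ONECUT3 and GNAO1 started from a level that could be counted with DMSO, while MAGEH1 and FMN2 started from very few counts. FABP4, the fatty acid-binding protein of adipocytes (ENSG00000170323, chromosome 8, 81478419 to 81483263), had 13.9, 11.5 and 9.02 CPM in the 3 CPI-0209 libraries and 0.294, 0.408 and 0.311 CPM in the 3 DMSO libraries and rose by 5.07 ± 0.24 (adjusted p = 8.48e-05). ONECUT3, a homeodomain transcription factor, had 12.1 ± 2.14 CPM with CPI-0209 and 0.415 ± 0.11 CPM with DMSO and rose by 4.87 ± 0.23 (adjusted p = 8.48e-05). GNAO1, the alpha subunit of the brain G protein Go, rose by 4.97 ± 0.32 (adjusted p = 0.000171), with 7.82 ± 1.74 CPM with CPI-0209 and 0.26 ± 0.122 CPM with DMSO. ZNF521, a zinc finger regulator of progenitor cells, rose by 6.09 ± 0.53 (adjusted p = 0.000577), and MAGEH1, a member of the MAGE family, rose by 5.31 ± 0.46 (adjusted p = 0.00059). On the scale of the fit of all 48 libraries, MAGEH1 had 1.53 CPM with CPI-0209 and 0.0301 CPM with DMSO. FMN2, an actin-nucleating formin, rose by 4.76 ± 0.51 (adjusted p = 0.00148), from 5 counts over the DMSO group. Each of the 15 genes had all CPI-0209 libraries above all DMSO libraries, which the rule that named them required.

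**Figure D3:**
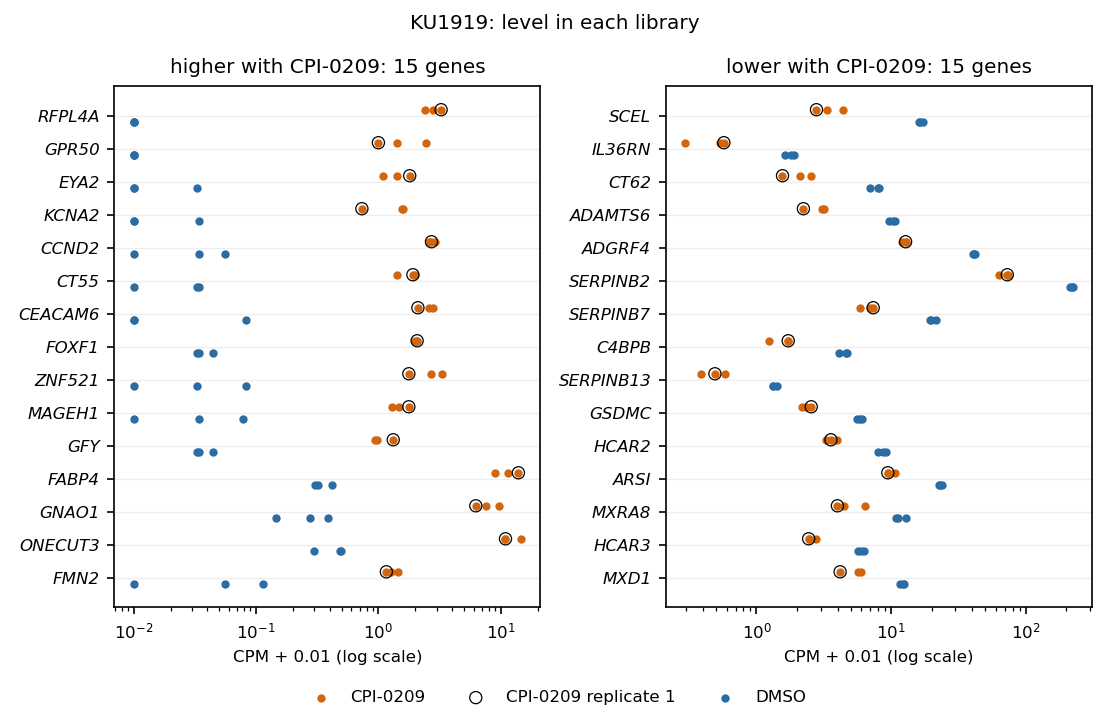
Level of 30 named genes in each KU1919 library, as CPM plus 0.01 on a log axis, with CPI-0209 libraries in orange above DMSO libraries in blue and CPI-0209 replicate 1 ringed. For the 15 higher genes (left) and the 15 lower genes (right) the groups do not overlap, and the ringed library lies within or next to its own group. The rule that named the genes required that the groups not overlap.

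The 33 genes that fell at least 2-fold had a median of 2.38 CPM with CPI-0209 and 5.98 CPM with DMSO. SCEL, which encodes sciellin, a precursor of the cornified envelope (ENSG00000136155, chromosome 13, 77535674 to 77645263), had 2.78, 4.37 and 3.32 CPM in the 3 CPI-0209 libraries and 16.1, 17.1 and 16.5 CPM in the 3 DMSO libraries. The groups did not overlap, which the rule that named the gene required, and it fell by 2.26 ± 0.16 (adjusted p = 0.000269). IL36RN, the antagonist of the interleukin-36 receptor, fell by 1.90 ± 0.25 (adjusted p = 0.00301), and ADGRF4, an adhesion G protein-coupled receptor, fell by 1.71 ± 0.07 (adjusted p = 7.27e-05), with 12.6 ± 0.421 CPM with CPI-0209 and 41.2 ± 0.608 CPM with DMSO. GSDMC, a pore-forming gasdermin, fell by 1.32 ± 0.12 (adjusted p = 0.00057). ADAMTS6, a secreted metalloprotease, fell by 1.86 ± 0.15 (adjusted p = 0.000458), with 2.81 ± 0.518 CPM with CPI-0209 and 10.2 ± 0.545 CPM with DMSO. C4BPB, a chain of the complement inhibitor C4b-binding protein, fell by 1.52 ± 0.16 (adjusted p = 0.00141). HCAR2, a receptor for hydroxybutyrate and niacin, fell by 1.26 ± 0.12 (adjusted p = 0.00072). Its neighbour HCAR3 fell by 1.23 ± 0.12 (adjusted p = 0.000723), but the pair is nearly identical and reads may be split between them. MXD1, a repressor that pairs with MAX against MYC, fell by 1.20 ± 0.14 (adjusted p = 0.00216), and CT62 fell by 1.89 ± 0.19 (adjusted p = 0.000948). ARSI, a sulfatase, fell by 1.23 ± 0.09 (adjusted p = 0.000253), and MXRA8, a membrane protein, fell by 1.23 ± 0.18 (adjusted p = 0.00521).

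Among the lower genes was a run of neighbours in the clade B serpin cluster of chromosome 18, a group of intracellular protease inhibitors of squamous epithelium. Over 63586989 to 64019779, every tested protein-coding gene fell: SERPINB13, SERPINB7, SERPINB2, HMSD and SERPINB8. SERPINB2, the plasminogen activator inhibitor PAI-2 (ENSG00000197632, chromosome 18, 63871692 to 63903890), had 72.9, 73.2 and 63.7 CPM in the 3 CPI-0209 libraries and 223, 214 and 220 CPM in the 3 DMSO libraries and fell by 1.65 ± 0.08 (adjusted p = 9.91e-05). The groups did not overlap, which the rule that named the gene required. SERPINB7 had 6.71 ± 0.762 CPM with CPI-0209 and 20.2 ± 1.27 CPM with DMSO and fell by 1.59 ± 0.11 (adjusted p = 0.000259). SERPINB13, an epidermal serpin also called headpin, fell by 1.52 ± 0.21 (adjusted p = 0.00385). SERPINB8 had 12.3 ± 1 CPM with CPI-0209 and 19.7 ± 1.33 CPM with DMSO and fell by 0.68 ± 0.10 (adjusted p = 0.00482), and HMSD, a minor histocompatibility gene of the serpin family, fell by 0.58 ± 0.13 (adjusted p = 0.0251, up to 0.12 over the alternatives). SERPINB5, which encodes maspin and lies beside the run, stood at -0.25 ± 0.08 (adjusted p = 0.0837), and SERPINB3, SERPINB4, SERPINB10, SERPINB11 and SERPINB12 had too few counts to be tested. Of 37 runs of at least 3 neighbouring tested genes called the same way, 34 were of higher and 3 of lower genes. Higher runs included TAP2, PSMB8, PSMB9 and TAP1 on chromosome 6. No expectation by chance was computed for the runs.

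The 250 bases before the RefSeq start of 4 of the serpin genes are shown because these genes fell together; they are sequences on GRCh38.p14, read 5′ to 3′ on the plus strand, at chr18:63587093-63587342 for SERPINB13, chr18:63752807-63753056 for SERPINB7, chr18:63887455-63887704 for SERPINB2 and chr18:63969831-63970080 for SERPINB8. These starts are not the GENCODE gene starts given above: the SERPINB2 and SERPINB13 windows lie inside the GENCODE genes, and the SERPINB7 and SERPINB8 windows span the GENCODE starts. Capitals mark TGANTCA, the letters that the AP-1 dimers of JUN and FOS proteins are known to bind, searched on both strands (the motif reads the same on each).
SERPINB13: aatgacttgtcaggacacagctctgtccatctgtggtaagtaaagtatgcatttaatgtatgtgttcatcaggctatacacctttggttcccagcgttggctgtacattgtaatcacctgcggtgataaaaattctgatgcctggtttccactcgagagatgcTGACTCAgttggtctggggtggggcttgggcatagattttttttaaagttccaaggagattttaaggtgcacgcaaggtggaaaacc
SERPINB7: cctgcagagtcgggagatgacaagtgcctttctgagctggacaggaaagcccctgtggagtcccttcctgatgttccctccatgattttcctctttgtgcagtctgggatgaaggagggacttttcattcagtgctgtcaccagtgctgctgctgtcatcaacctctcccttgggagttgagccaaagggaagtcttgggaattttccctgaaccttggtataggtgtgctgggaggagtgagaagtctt
SERPINB2: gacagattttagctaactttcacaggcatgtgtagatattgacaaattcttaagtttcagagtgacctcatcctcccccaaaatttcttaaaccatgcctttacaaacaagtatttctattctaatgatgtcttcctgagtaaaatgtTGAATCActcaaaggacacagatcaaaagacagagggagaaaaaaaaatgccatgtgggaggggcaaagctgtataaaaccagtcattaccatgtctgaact
SERPINB8: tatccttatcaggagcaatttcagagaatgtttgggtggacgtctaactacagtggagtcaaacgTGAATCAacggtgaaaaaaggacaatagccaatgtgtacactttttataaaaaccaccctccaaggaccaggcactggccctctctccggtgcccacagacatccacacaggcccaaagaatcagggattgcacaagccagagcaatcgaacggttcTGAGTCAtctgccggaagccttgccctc
The motif was found 1 time in SERPINB13, 1 time in SERPINB2 and 2 times in SERPINB8, and these letters are not in the SERPINB7 window. Of 27305 RefSeq windows of the same length, 1801 (6.6%) hold it. The match describes the sequence, and binding was not measured.

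Changes among the genes with the most counts were smaller. KRT7, a keratin of simple and luminal epithelium (ENSG00000135480, chromosome 12, 52232520 to 52252186), had 5290, 4190 and 4630 CPM in the 3 CPI-0209 libraries and 3510, 3420 and 3570 CPM in the 3 DMSO libraries and rose by 0.43 ± 0.10 (adjusted p = 0.0369, up to 0.169 over the alternatives). Its highest value was in CPI-0209 replicate 1, and without that library the log2 fold change was 0.33. ALDH1A3, an enzyme that makes retinoic acid (ENSG00000184254, chromosome 15, 100877714 to 100916626), had 811, 1010 and 1010 CPM in the 3 CPI-0209 libraries and 357, 355 and 358 CPM in the 3 DMSO libraries. The gene rose by 1.40 ± 0.10 (adjusted p = 0.000338) with no overlap between groups. IGF2, a growth factor, rose by 0.48 ± 0.09 (adjusted p = 0.0109, up to 0.081 over the alternatives), and IGFBP4, a binding protein of such factors, rose by 0.58 ± 0.11 (adjusted p = 0.0179, up to 0.0902 over the alternatives). Among the falls, ITGB4, the integrin subunit of hemidesmosomes (ENSG00000132470, chromosome 17, 75721328 to 75757818), had 750, 964 and 1150 CPM in the 3 CPI-0209 libraries and 2010, 2140 and 2120 CPM in the 3 DMSO libraries. It fell by 1.13 ± 0.15 (adjusted p = 0.00355), and it fell by 0.99 without CPI-0209 replicate 1, the lowest of its group. FSCN1, an actin-bundling protein, fell by 0.59 ± 0.08 (adjusted p = 0.00448), with 638 ± 49.8 CPM with CPI-0209 and 962 ± 13.4 CPM with DMSO. PXN, which encodes the focal adhesion protein paxillin, fell by 0.43 ± 0.09 (adjusted p = 0.0214, up to 0.111 over the alternatives). MYH9, non-muscle myosin IIA, fell by 0.73 ± 0.19 (adjusted p = 0.0481, up to 0.152 over the alternatives), and PABPC1, the poly(A)-binding protein, fell by 0.29 ± 0.07 (adjusted p = 0.0407, up to 0.205 over the alternatives); PABPC1 has processed copies that can share its reads.

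Of 103 tested developmental transcription factors outside the HOX clusters, 46 rose and 3 fell, with a median log2 fold change of 0.65. These are 44.7% and 2.91% of the tested members, against 9.3% and 2.4% of all tested genes. The full list held 146 genes, and the Wnt, neuronal and fibroblast lists below held 53, 37 and 12. The filter keeps genes counted in either group alone. Members silent with DMSO thus entered the shares if counted with CPI-0209 and dropped out if they stayed silent, in every list. Without CPI-0209 replicate 1 the shares of all tested genes were 18.4% and 14.3%. When 1 of the 5 other libraries was left out, 858 to 1163 of all tested genes rose and 113 to 373 fell. Among these 103 genes, 62 rose and 6 fell without CPI-0209 replicate 1, and 32 to 41 rose and 0 to 2 fell when 1 of the 5 other libraries was left out. LHX1, a LIM homeodomain factor of kidney and brain (ENSG00000273706, chromosome 17, 36936785 to 36944612), had 33.6, 32.9 and 35.3 CPM in the 3 CPI-0209 libraries and 1.2, 1.06 and 1.59 CPM in the 3 DMSO libraries and rose by 4.75 ± 0.14 (adjusted p = 2.55e-05). SOX2, a factor of stem and neural progenitor cells (ENSG00000181449, chromosome 3, 181711924 to 181714436), had 11.1, 10.1 and 9.77 CPM in the 3 CPI-0209 libraries and 0.587, 0.768 and 0.794 CPM in the 3 DMSO libraries and rose by 3.86 ± 0.15 (adjusted p = 5.06e-05). For both genes every CPI-0209 library lay above every DMSO library. EMX1, a homeodomain factor of the forebrain, rose by 4.61 ± 0.23 (adjusted p = 8.90e-05), with 5.55 ± 0.745 CPM with CPI-0209 and 0.216 ± 0.0695 CPM with DMSO. TBX3, a T-box factor of limb, breast and bladder, rose by 1.73 ± 0.14 (adjusted p = 0.00046). The members that fell were GATA6, an endoderm factor, which fell by 0.49 ± 0.09 (adjusted p = 0.015, up to 0.088 over the alternatives), FOXD1, a forkhead factor, which fell by 0.42 ± 0.10 (adjusted p = 0.0319, up to 0.14 over the alternatives), and TFAP2A, an ectoderm factor, which fell by 0.40 ± 0.08 (adjusted p = 0.0209, up to 0.117 over the alternatives). Of 36 tested HOX genes, 9 rose and 0 fell, with a median log2 fold change of 0.27. Among these 36 genes, 13 rose and 2 fell without CPI-0209 replicate 1, and 1 to 7 rose and 0 fell when 1 of the 5 other libraries was left out. HOXD13, which patterns the distal limb, rose by 1.08 ± 0.12 (adjusted p = 0.00179). HOXD10 rose by 0.99 ± 0.18 (adjusted p = 0.0129, up to 0.0693 over the alternatives), HOXC8 rose by 0.57 ± 0.09 (adjusted p = 0.00762, up to 0.057 over the alternatives) and HOXA5 rose by 0.55 ± 0.11 (adjusted p = 0.0151, up to 0.0915 over the alternatives). Of 30 tested genes that published work lists as EZH2-repressed, 14 rose and 2 fell, with a median log2 fold change of 0.55. Among these 30 genes, 18 rose and 6 fell without CPI-0209 replicate 1, and 6 to 12 rose and 1 to 2 fell when 1 of the 5 other libraries was left out. SLIT2, a secreted guidance cue, rose by 3.44 ± 0.30 (adjusted p = 0.000575), and TIMP3, a metalloprotease inhibitor, rose by 0.71 ± 0.09 (adjusted p = 0.00292). CDKN1C, the CDK inhibitor p57, had 2.61 ± 0.607 CPM with CPI-0209 and 0.911 ± 0.269 CPM with DMSO and rose by 1.5 ± 0.26 (adjusted p = 0.0107, up to 0.0504 over the alternatives). STING1, the adaptor of cytosolic DNA sensing, is on the same list and fell by 0.36 ± 0.08 (adjusted p = 0.0212, up to 0.129 over the alternatives). A gene may stand in more than 1 list, and the lists were drawn up with earlier results of these data known, so their direction is no independent evidence.

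Of 40 tested Wnt ligands, receptors, antagonists and nuclear partners, 20 rose and 0 fell, with a median log2 fold change of 0.58. That is 50% and 0%, against 9.3% and 2.4% of all tested genes (18.4% and 14.3% without CPI-0209 replicate 1). Among these 40 genes, 27 rose and 1 fell without CPI-0209 replicate 1, and 13 to 18 rose and 0 fell when 1 of the 5 other libraries was left out. The ligand WNT3A rose by 3.13 ± 0.19 (adjusted p = 0.000144), with 2.9 ± 0.349 CPM with CPI-0209 and 0.329 ± 0.0271 CPM with DMSO. LEF1, a nuclear partner of beta-catenin, rose by 3.33 ± 0.16 (adjusted p = 8.48e-05), with 7.01 ± 0.418 CPM with CPI-0209 and 0.69 ± 0.13 CPM with DMSO. Antagonists rose as well: SFRP1, a decoy receptor, rose by 2.35 ± 0.11 (adjusted p = 8.48e-05), NOTUM, which inactivates Wnt proteins, rose by 1.96 ± 0.13 (adjusted p = 0.000206), and NKD2, an intracellular antagonist, rose by 1.34 ± 0.11 (adjusted p = 0.00048). DKK1, a secreted inhibitor of Wnt co-receptors, had 407, 357 and 333 CPM in the 3 CPI-0209 libraries and 250, 242 and 243 CPM in the 3 DMSO libraries and rose by 0.58 ± 0.09 (adjusted p = 0.00729, up to 0.0527 over the alternatives). SFRP2 had 0 counts with DMSO; with SFRP2 at its bound of at least 25.5-fold the median of the Wnt list was again 0.58. Of 45 tested BMP, activin and TGF-beta genes, 19 rose and 1 fell, with a median log2 fold change of 0.53. Among these 45 genes, 26 rose and 4 fell without CPI-0209 replicate 1, and 16 to 17 rose and 0 fell when 1 of the 5 other libraries was left out. BMP4, a ligand, rose by 2.78 ± 0.20 (adjusted p = 0.000314), with 3.65 ± 0.595 CPM with CPI-0209 and 0.524 ± 0.0949 CPM with DMSO, and BMP7, another, rose by 1.13 ± 0.09 (adjusted p = 0.000357), with 76.9 ± 5.51 CPM with CPI-0209 and 35 ± 1.69 CPM with DMSO. SMAD6, an intracellular inhibitor of BMP signals, rose by 1.22 ± 0.11 (adjusted p = 0.000551), INHBA, an activin subunit, rose by 1.05 ± 0.09 (adjusted p = 0.000586), and TGFB2 rose by 1.25 ± 0.18 (adjusted p = 0.00448). The receptor TGFBR2 fell by 0.59 ± 0.14 (adjusted p = 0.0401, up to 0.14 over the alternatives).

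Of 17 tested FGF ligands and receptors, 8 rose and 1 fell, with a median log2 fold change of 0.48. The shares were 47.1% and 5.88%, against 9.3% and 2.4% of all tested genes (18.4% and 14.3% without CPI-0209 replicate 1). Among these 17 genes, 9 rose and 1 fell without CPI-0209 replicate 1, and 3 to 5 rose and 0 to 1 fell when 1 of the 5 other libraries was left out. FGF19, a ligand that acts through FGFR4, rose by 2.08 ± 0.15 (adjusted p = 0.000308), and FGF18 rose by 1.25 ± 0.19 (adjusted p = 0.0058). The receptor FGFR3, which is often mutated in luminal bladder cancer, rose by 0.96 ± 0.15 (adjusted p = 0.00663), and the receptor FGFR4 rose by 0.48 ± 0.09 (adjusted p = 0.0136, up to 0.0904 over the alternatives). The ligand FGF5 fell by 0.47 ± 0.09 (adjusted p = 0.0128, up to 0.0799 over the alternatives). Of 24 tested Notch pathway genes, 7 rose and 1 fell, with a median log2 fold change of 0.24. Among these 24 genes, 10 rose and 3 fell without CPI-0209 replicate 1, and 5 to 6 rose and 0 to 1 fell when 1 of the 5 other libraries was left out. DLL1, a ligand, rose by 2.57 ± 0.16 (adjusted p = 0.000145), DTX1, a Deltex ubiquitin ligase, rose by 2.27 ± 0.13 (adjusted p = 0.000129), and HES2, a Hairy-related repressor, rose by 1.52 ± 0.09 (adjusted p = 0.000144), with 20.6 ± 0.379 CPM with CPI-0209 and 7.18 ± 0.59 CPM with DMSO. JAG2, another ligand, fell by 0.38 ± 0.09 (adjusted p = 0.035, up to 0.171 over the alternatives). Of 16 tested hedgehog genes, 3 rose and 0 fell, with a median log2 fold change of 0.07. Among these 16 genes, 5 rose and 0 fell without CPI-0209 replicate 1. SHH, the ligand sonic hedgehog, had 0.817 ± 0.0739 CPM with CPI-0209 and 0.0655 ± 0.0329 CPM with DMSO and rose by 3.66 ± 0.34 (adjusted p = 0.000723). HHIP, a cell-surface antagonist, rose by 1.01 ± 0.13 (adjusted p = 0.0029), and BOC, a co-receptor, rose by 0.76 ± 0.16 (adjusted p = 0.0229, up to 0.117 over the alternatives). Of 20 tested retinoic acid genes, 8 rose and 0 fell, with a median log2 fold change of 0.67. Among these 20 genes, 9 rose and 1 fell without CPI-0209 replicate 1. Beside ALDH1A3, the retinoic acid-binding protein CRABP2 rose by 1.98 ± 0.12 (adjusted p = 0.000144) and CRABP1 rose by 2.46 ± 0.21 (adjusted p = 0.000508). DHRS3, which reduces retinaldehyde back to retinol, rose by 1.03 ± 0.12 (adjusted p = 0.0023), with 68.7 ± 11.2 CPM with CPI-0209 and 33.7 ± 1.25 CPM with DMSO.

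Of 28 tested neuronal genes, 15 rose and 2 fell, with a median log2 fold change of 0.86. That is 53.6% and 7.14%, against 9.3% and 2.4% of all tested genes (18.4% and 14.3% without CPI-0209 replicate 1). Among these 28 genes, 21 rose and 2 fell without CPI-0209 replicate 1, and 10 to 13 rose and 0 fell when 1 of the 5 other libraries was left out. NEFL, a neurofilament subunit, rose by 1.55 ± 0.09 (adjusted p = 0.000144), and NEFM, another, rose by 1.35 ± 0.11 (adjusted p = 0.000427). TUBB3, neuronal beta-tubulin, rose by 1.27 ± 0.09 (adjusted p = 0.000274), with 72.6 ± 6.6 CPM with CPI-0209 and 30.1 ± 0.979 CPM with DMSO, and NES, the intermediate filament nestin, rose by 1.15 ± 0.10 (adjusted p = 0.00056), with 181 ± 21.1 CPM with CPI-0209 and 81.1 ± 0.159 CPM with DMSO. INA, a further neurofilament-type protein, fell by 0.41 ± 0.09 (adjusted p = 0.0293, up to 0.159 over the alternatives), and SYT1, a calcium sensor of synaptic vesicles, fell by 0.44 ± 0.09 (adjusted p = 0.0242, up to 0.14 over the alternatives). Of 56 tested ion channel genes, 25 rose and 2 fell, with a median log2 fold change of 0.62. Among these 56 genes, 35 rose and 2 fell without CPI-0209 replicate 1, and 18 to 24 rose and 0 to 1 fell when 1 of the 5 other libraries was left out. TRPV6, an epithelial calcium channel, rose by 1.63 ± 0.13 (adjusted p = 0.000451), and KCNJ12, an inward rectifier, rose by 1.10 ± 0.12 (adjusted p = 0.00146). KCNN4, a calcium-activated potassium channel, fell by 0.74 ± 0.18 (adjusted p = 0.0375, up to 0.141 over the alternatives), and KCNMA1, another, fell by 0.42 ± 0.08 (adjusted p = 0.017, up to 0.309 over the alternatives). Of 61 tested axon guidance genes, 26 rose and 2 fell, with a median log2 fold change of 0.32. Among these 61 genes, 40 rose and 7 fell without CPI-0209 replicate 1, and 16 to 22 rose and 1 to 3 fell when 1 of the 5 other libraries was left out. EPHA8, an ephrin receptor, rose by 2.91 ± 0.17 (adjusted p = 0.000142), RTN4RL1, a Nogo receptor homologue, rose by 2.79 ± 0.22 (adjusted p = 0.000439), and NTNG2, a netrin, rose by 2.16 ± 0.18 (adjusted p = 0.000487). SEMA7A, a semaphorin, fell by 0.60 ± 0.08 (adjusted p = 0.00292), and PLXNA4, a plexin, fell by 0.64 ± 0.12 (adjusted p = 0.0138, up to 0.0697 over the alternatives). Of 11 tested sodium pump subunits and FXYD regulators, 4 rose and 0 fell, with a median log2 fold change of 0.46. Among these 11 genes, 4 rose and 2 fell without CPI-0209 replicate 1, and 2 to 5 rose and 0 fell when 1 of the 5 other libraries was left out. ATP1B2, a beta subunit, rose by 1.76 ± 0.13 (adjusted p = 0.000328). Of 25 tested clustered protocadherins, 3 rose and 1 fell, with a median log2 fold change of -0.21. The shares, 12% and 4%, lie near those of all tested genes. Among these 25 genes, 6 rose and 5 fell without CPI-0209 replicate 1, and 0 to 2 rose and 0 to 1 fell when 1 of the 5 other libraries was left out. These genes share sequence, and none of the 4 calls held under every alternative. Of 15 tested cancer/testis antigens, 3 rose and 0 fell, with a median log2 fold change of 0.12. Among these 15 genes, 3 rose and 0 fell without CPI-0209 replicate 1. TEX15, a germ cell gene, had 0.864 ± 0.391 CPM with CPI-0209 and 0.05 ± 0.0463 CPM with DMSO and rose by 4.17 ± 0.65 (adjusted p = 0.00622), and MAGEC1 rose by 1.75 ± 0.27 (adjusted p = 0.00576).

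Of 22 tested luminal genes, 9 rose and 1 fell, with a median log2 fold change of 0.47. The shares were 40.9% and 4.55%, against 9.3% and 2.4% of all tested genes (18.4% and 14.3% without CPI-0209 replicate 1). Among these 22 genes, 12 rose and 4 fell without CPI-0209 replicate 1, and 5 to 7 rose and 0 to 1 fell when 1 of the 5 other libraries was left out. ELF3, an epithelial transcription factor, had 85.6, 81.5 and 91.2 CPM in the 3 CPI-0209 libraries and 36, 34.9 and 36.3 CPM in the 3 DMSO libraries and rose by 1.27 ± 0.08 (adjusted p = 0.000151). PPARG, the nuclear receptor of luminal cells, had 101, 99.5 and 95.5 CPM in the 3 CPI-0209 libraries and 67.3, 65.7 and 68.6 CPM in the 3 DMSO libraries and rose by 0.55 ± 0.07 (adjusted p = 0.00285). GATA3, a luminal transcription factor, had 23.5 ± 2.39 CPM with CPI-0209 and 16.5 ± 1.7 CPM with DMSO and rose by 0.51 ± 0.11 (adjusted p = 0.029, up to 0.131 over the alternatives). TMPRSS2, a surface protease, rose by 2.34 ± 0.34 (adjusted p = 0.00477), and VGLL1, a TEAD cofactor, fell by 0.75 ± 0.13 (adjusted p = 0.0106, up to 0.0582 over the alternatives). UPK3A, a uroplakin of terminal luminal cells, had 0 counts in all 6 libraries, and UPK2 stayed under 0.5 CPM in each. Of 25 tested basal and squamous genes, 1 rose and 5 fell, with a median log2 fold change of -0.31. Among these 25 genes, 3 rose and 13 fell without CPI-0209 replicate 1, and 1 rose and 3 to 4 fell when 1 of the 5 other libraries was left out. Beside ITGB4, the hemidesmosome collagen COL17A1 fell by 0.95 ± 0.14 (adjusted p = 0.00492), with 211 ± 37.2 CPM with CPI-0209 and 406 ± 33.9 CPM with DMSO, P-cadherin, CDH3, fell by 0.53 ± 0.08 (adjusted p = 0.00483, up to 0.17 over the alternatives), and KRT14, a basal keratin, fell by 0.86 ± 0.17 (adjusted p = 0.0164, up to 0.0722 over the alternatives). KRT13, a keratin of the intermediate layers, rose instead: it had 19.2, 15.7 and 17.9 CPM in the 3 CPI-0209 libraries and 3.93, 4.78 and 4 CPM in the 3 DMSO libraries and rose by 2.05 ± 0.12 (adjusted p = 0.000145). KRT5, the other defining basal keratin, stood at 0.12 ± 0.08 (adjusted p = 0.381), and TP63, the basal transcription factor, at -0.61 ± 0.17 (adjusted p = 0.0619). TP63 had 66.4, 104 and 104 CPM in the 3 CPI-0209 libraries and 140, 140 and 138 CPM in the 3 DMSO libraries. It was called lower in 8 of the 14 alternatives, so whether TP63 is called depends on the setting. The summed level of the 5 luminal markers was 171 to 182 CPM with CPI-0209 and 129 to 137 CPM with DMSO. That of the 5 basal markers was 3170 to 3710 CPM with CPI-0209 and 3380 to 3510 CPM with DMSO. The lowest of these values was that of CPI-0209 replicate 1. Of 26 tested epithelial adhesion and keratin genes, 3 rose and 0 fell, with a median log2 fold change of -0.01. The higher share, 11.5%, lies near that of all tested genes. Among these 26 genes, 5 rose and 6 fell without CPI-0209 replicate 1, and 1 to 3 rose and 0 fell when 1 of the 5 other libraries was left out. ST14, the protease matriptase, rose by 0.74 ± 0.09 (adjusted p = 0.00209). EPCAM had 194 ± 19.4 CPM with CPI-0209 and 208 ± 7.23 CPM with DMSO and the 6 epithelial markers summed to 11900 to 15200 CPM with CPI-0209 and 11700 to 12200 CPM with DMSO. CPI-0209 replicate 1 gave the highest of these sums, with 4610 CPM of KRT8 against 3470 and 3660 CPM in replicates 2 and 3.

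Of 21 tested epithelial to mesenchymal transition genes, 7 rose and 2 fell, with a median log2 fold change of 0.24. That is 33.3% and 9.52%, against 9.3% and 2.4% of all tested genes (18.4% and 14.3% without CPI-0209 replicate 1). Among these 21 genes, 10 rose and 2 fell without CPI-0209 replicate 1, and 3 to 4 rose and 0 to 2 fell when 1 of the 5 other libraries was left out. FN1, fibronectin, had 55.2, 115 and 125 CPM in the 3 CPI-0209 libraries and 41.3, 40.6 and 45.7 CPM in the 3 DMSO libraries and rose by 1.21 ± 0.28 (adjusted p = 0.033, up to 0.129 over the alternatives); CPI-0209 replicate 1 was the lowest of its group. VIM, vimentin, rose by 0.49 ± 0.10 (adjusted p = 0.0212, up to 0.117 over the alternatives), with 7.22 ± 0.563 CPM with CPI-0209 and 5.14 ± 0.153 CPM with DMSO, and CDH11, a mesenchymal cadherin, rose by 1.3 ± 0.17 (adjusted p = 0.00343). The transcription factor SNAI2 fell by 0.40 ± 0.08 (adjusted p = 0.0141, up to 0.0951 over the alternatives). CDH1, E-cadherin, an epithelial marker outside this list, stood at -0.40 ± 0.16 (adjusted p = 0.162). Of 51 tested collagen and matrix genes, 16 rose and 1 fell, with a median log2 fold change of 0.43. Among these 51 genes, 34 rose and 4 fell without CPI-0209 replicate 1, and 9 to 14 rose and 1 fell when 1 of the 5 other libraries was left out. VCAN, the proteoglycan versican, had 2.83 ± 1.06 CPM with CPI-0209 and 0.127 ± 0.0402 CPM with DMSO and rose by 4.49 ± 0.43 (adjusted p = 0.000892), BGN, biglycan, rose by 1.22 ± 0.10 (adjusted p = 0.000466), and COL1A1, the main collagen of fibroblasts, rose by 0.66 ± 0.11 (adjusted p = 0.00808, up to 0.0506 over the alternatives). Members of this list lay a median of 0.49 lower on the log2 scale in CPI-0209 replicate 1 than in replicates 2 and 3. Of 30 tested matrix proteases and inhibitors, 13 rose and 3 fell, with a median log2 fold change of 0.48. Among these 30 genes, 19 rose and 4 fell without CPI-0209 replicate 1, and 6 to 9 rose and 1 to 2 fell when 1 of the 5 other libraries was left out. SERPINE2, the inhibitor protease nexin-1, rose by 0.99 ± 0.07 (adjusted p = 0.000269), with 137 ± 1.5 CPM with CPI-0209 and 68.6 ± 2.34 CPM with DMSO, and ADAMTS7 rose by 1.01 ± 0.09 (adjusted p = 0.00072). Of 17 tested YAP and TEAD targets, 3 rose and 7 fell, with a median log2 fold change of -0.51. Among these 17 genes, 4 rose and 12 fell without CPI-0209 replicate 1, and 2 rose and 3 to 8 fell when 1 of the 5 other libraries was left out. F3, tissue factor, had 124, 135 and 137 CPM in the 3 CPI-0209 libraries and 232, 219 and 222 CPM in the 3 DMSO libraries and fell by 0.77 ± 0.08 (adjusted p = 0.000999). AJUBA, a LIM protein of the Hippo pathway, had 110, 109 and 110 CPM in the 3 CPI-0209 libraries and 189, 186 and 182 CPM in the 3 DMSO libraries and fell by 0.76 ± 0.07 (adjusted p = 0.00059). For both genes the groups lay well apart. NUAK2, a kinase, fell by 0.67 ± 0.10 (adjusted p = 0.00555), and NT5E, the ectonucleotidase CD73, fell by 0.55 ± 0.10 (adjusted p = 0.00968, up to 0.0567 over the alternatives). CCN2, a secreted matricellular protein, fell by 0.45 ± 0.09 (adjusted p = 0.0181, up to 0.0988 over the alternatives). Its relative CCN1 fell by 0.31 ± 0.08 (adjusted p = 0.0439, up to 0.202 over the alternatives); these 2 were chosen after their values were seen. WTIP, a further LIM protein, rose by 0.67 ± 0.10 (adjusted p = 0.00605).

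Of 40 tested type I interferon-stimulated genes, 4 rose and 3 fell, with a median log2 fold change of -0.03. The shares were 10% and 7.5%, against 9.3% and 2.4% of all tested genes (18.4% and 14.3% without CPI-0209 replicate 1). The higher share thus lies near that of all tested genes. Among these 40 genes, 8 rose and 10 fell without CPI-0209 replicate 1, and 1 to 2 rose and 1 to 2 fell when 1 of the 5 other libraries was left out. OAS1, which senses double-stranded RNA, had 3.37 ± 0.323 CPM with CPI-0209 and 0.474 ± 0.0593 CPM with DMSO and rose by 2.81 ± 0.17 (adjusted p = 0.000145). IFIH1, the RNA sensor MDA5, rose by 1.79 ± 0.38 (adjusted p = 0.0239, up to 0.105 over the alternatives), and IFITM3, which blocks viral entry, rose by 0.60 ± 0.13 (adjusted p = 0.0281, up to 0.131 over the alternatives). IFI44 fell by 0.86 ± 0.10 (adjusted p = 0.00209), DDX60 fell by 0.60 ± 0.13 (adjusted p = 0.0251, up to 0.118 over the alternatives) and IFIT2 fell by 0.36 ± 0.09 (adjusted p = 0.0391, up to 0.188 over the alternatives). Of 21 tested MHC class I presentation genes, 6 rose and 0 fell, with a median log2 fold change of 0.18. Among these 21 genes, 11 rose and 0 fell without CPI-0209 replicate 1, and 3 to 4 rose and 0 fell when 1 of the 5 other libraries was left out. PSMB8, an immunoproteasome subunit, had 21.6, 15.9 and 17.4 CPM in the 3 CPI-0209 libraries and 9.28, 8.3 and 8.9 CPM in the 3 DMSO libraries and rose by 1.05 ± 0.13 (adjusted p = 0.00257). Its neighbour TAP1, a chain of the peptide transporter, rose by 0.63 ± 0.08 (adjusted p = 0.00292), and TAP2, its partner, rose by 0.38 ± 0.07 (adjusted p = 0.0151, up to 0.109 over the alternatives). IRF1, an interferon regulatory factor, rose by 0.67 ± 0.08 (adjusted p = 0.00222). Of 14 tested MHC class II genes, 2 rose and 1 fell, with a median log2 fold change of 0.21. Among these 14 genes, 2 rose and 2 fell without CPI-0209 replicate 1, and 1 to 2 rose and 0 to 1 fell when 1 of the 5 other libraries was left out. HLA-DQB1 rose by 0.89 ± 0.11 (adjusted p = 0.00279), while the invariant chain CD74 fell by 0.55 ± 0.09 (adjusted p = 0.00681, up to 0.0508 over the alternatives). Of 26 tested cytokines and chemokines, 2 rose and 4 fell, with a median log2 fold change of -0.03. Among these 26 genes, 4 rose and 7 fell without CPI-0209 replicate 1, and 2 rose and 2 to 3 fell when 1 of the 5 other libraries was left out. The chemokine CXCL16 rose by 1.76 ± 0.12 (adjusted p = 0.000244), and CXCL1, which attracts neutrophils, rose by 1.37 ± 0.11 (adjusted p = 0.000466). IL1A, an alarmin, fell by 1.14 ± 0.16 (adjusted p = 0.00392), with 2.38 ± 0.373 CPM with CPI-0209 and 5.28 ± 0.62 CPM with DMSO, CXCL2 fell by 0.96 ± 0.18 (adjusted p = 0.0137, up to 0.0727 over the alternatives) and CXCL8 fell by 0.91 ± 0.20 (adjusted p = 0.0249, up to 0.117 over the alternatives). Of 22 tested NF-kB targets, 2 rose and 5 fell, with a median log2 fold change of -0.04. Among these 22 genes, 3 rose and 8 fell without CPI-0209 replicate 1, and 2 rose and 1 to 4 fell when 1 of the 5 other libraries was left out. Of 11 tested haematopoietic growth factors and receptors, 3 rose and 0 fell, with a median log2 fold change of 0.04. Among these 11 genes, 4 rose and 3 fell without CPI-0209 replicate 1. CSF1, the macrophage growth factor, rose by 1.08 ± 0.11 (adjusted p = 0.00103), with 34.8 ± 3.77 CPM with CPI-0209 and 16.4 ± 1.25 CPM with DMSO.

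Of 50 tested replication and mitosis genes, 1 rose and 1 fell, with a median log2 fold change of -0.09. That is 2% in each direction, against 9.3% and 2.4% of all tested genes (18.4% and 14.3% without CPI-0209 replicate 1). Among these 50 genes, 2 rose and 20 fell without CPI-0209 replicate 1, and 1 rose and 0 to 1 fell when 1 of the 5 other libraries was left out. Without that replicate the lower share lay above the 14.3% of all tested genes. With voom quality weights 1 rose and 12 fell, and the fit of all 48 libraries gave the same counts. The lower share thus depends on the setting. CCNE1, cyclin E1, rose by 0.75 ± 0.08 (adjusted p = 0.00162), and the phosphatase CDC25A fell by 0.37 ± 0.08 (adjusted p = 0.0245, up to 0.139 over the alternatives). Of 15 tested D-type cyclins, kinases and CDK inhibitors, 3 rose and 1 fell, with a median log2 fold change of -0.06. Among these 15 genes, 3 rose and 4 fell without CPI-0209 replicate 1, and 1 to 3 rose and 0 fell when 1 of the 5 other libraries was left out. CDKN1A, the inhibitor p21, rose by 0.40 ± 0.09 (adjusted p = 0.0276, up to 0.149 over the alternatives), and CDKN1B, the inhibitor p27, fell by 0.35 ± 0.07 (adjusted p = 0.021, up to 0.136 over the alternatives). Of 30 tested p53 targets, 8 rose and 0 fell, with a median log2 fold change of 0.20. Among these 30 genes, 16 rose and 5 fell without CPI-0209 replicate 1, and 3 to 6 rose and 0 fell when 1 of the 5 other libraries was left out. FAS, a death receptor, had 12.8 ± 0.988 CPM with CPI-0209 and 6.75 ± 0.292 CPM with DMSO and rose by 0.91 ± 0.10 (adjusted p = 0.00122). GDF15, a stress cytokine, rose by 0.87 ± 0.12 (adjusted p = 0.00347), BTG2, an antiproliferative factor, rose by 0.77 ± 0.08 (adjusted p = 0.00119), and MDM2, the p53 ubiquitin ligase, rose by 0.48 ± 0.07 (adjusted p = 0.0059, up to 0.0517 over the alternatives). Of 28 tested ERK feedback and immediate early genes, 7 rose and 7 fell, with a median log2 fold change of -0.14. Among these 28 genes, 8 rose and 12 fell without CPI-0209 replicate 1, and 3 to 6 rose and 4 to 7 fell when 1 of the 5 other libraries was left out. JUN, a subunit of AP-1, had 116, 126 and 154 CPM in the 3 CPI-0209 libraries and 227, 213 and 214 CPM in the 3 DMSO libraries and fell by 0.72 ± 0.11 (adjusted p = 0.00683). FOSB fell by 0.59 ± 0.09 (adjusted p = 0.00616), whereas FOS rose by 0.72 ± 0.12 (adjusted p = 0.00808, up to 0.0517 over the alternatives). The ERK phosphatases moved in opposite directions: DUSP5 fell by 0.86 ± 0.07 (adjusted p = 0.000487) and DUSP4 rose by 0.94 ± 0.10 (adjusted p = 0.00123). SPRY1, an inhibitor of receptor tyrosine kinase signals, rose by 1.19 ± 0.12 (adjusted p = 0.000838), and EGR2 rose by 1.10 ± 0.17 (adjusted p = 0.00614). Of 16 tested EGF ligands and ERBB receptors, 1 rose and 0 fell, with a median log2 fold change of 0.12. Among these 16 genes, 4 rose and 6 fell without CPI-0209 replicate 1, and 0 to 1 rose and 0 to 1 fell when 1 of the 5 other libraries was left out. NRG1, an ERBB3 ligand, rose by 0.45 ± 0.09 (adjusted p = 0.0148, up to 0.0996 over the alternatives).

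Of 38 tested hypoxia and glycolysis genes, 4 rose and 3 fell, with a median log2 fold change of -0.05. The shares were 10.5% and 7.89%, against 9.3% and 2.4% of all tested genes (18.4% and 14.3% without CPI-0209 replicate 1). The higher share thus lies near that of all tested genes. Among these 38 genes, 7 rose and 14 fell without CPI-0209 replicate 1, and 4 rose and 0 to 2 fell when 1 of the 5 other libraries was left out. ADM, the vasodilator adrenomedullin, had 15.1, 12.9 and 11.8 CPM in the 3 CPI-0209 libraries and 2.08, 2.71 and 1.9 CPM in the 3 DMSO libraries and rose by 2.56 ± 0.17 (adjusted p = 0.00019). CA12, a carbonic anhydrase, rose by 1.46 ± 0.13 (adjusted p = 0.000604), EGLN3, an oxygen sensor, rose by 1.44 ± 0.18 (adjusted p = 0.00285), and VEGFA fell by 0.42 ± 0.09 (adjusted p = 0.0261, up to 0.128 over the alternatives). Of 32 tested unfolded protein and integrated stress response genes, 3 rose and 1 fell, with a median log2 fold change of 0.03. The shares, 9.38% and 3.12%, lie near those of all tested genes. Among these 32 genes, 7 rose and 5 fell without CPI-0209 replicate 1, and 1 to 3 rose and 1 fell when 1 of the 5 other libraries was left out. CHAC1 rose by 0.73 ± 0.12 (adjusted p = 0.00733), and PPP1R15A, the phosphatase subunit GADD34, fell by 0.58 ± 0.07 (adjusted p = 0.00244). Of 20 tested heat shock genes, 1 rose and 2 fell, with a median log2 fold change of -0.02. Among these 20 genes, 1 rose and 5 fell without CPI-0209 replicate 1, and 1 rose and 0 to 3 fell when 1 of the 5 other libraries was left out. HSPB8, a small heat shock protein, had 0.764 ± 0.105 CPM with CPI-0209 and 0.0585 ± 0.0329 CPM with DMSO and rose by 3.59 ± 0.37 (adjusted p = 0.0011). Of 25 tested cholesterol genes, 1 rose and 0 fell, with a median log2 fold change of -0.09. Among these 25 genes, 2 rose and 9 fell without CPI-0209 replicate 1, and 0 rose and 0 to 1 fell when 1 of the 5 other libraries was left out. Of 21 tested SWI/SNF and KDM6 genes, 1 rose and 0 fell, with a median log2 fold change of -0.17. Among these 21 genes, 1 rose and 4 fell without CPI-0209 replicate 1. SMARCD3 rose by 0.82 ± 0.11 (adjusted p = 0.00393). Of 32 tested replication-dependent histone genes, 4 rose and 0 fell, with a median log2 fold change of 0.31. Among these 32 genes, 10 rose and 0 fell without CPI-0209 replicate 1, and 1 to 4 rose and 0 fell when 1 of the 5 other libraries was left out. Their transcripts lack poly(A) tails and their copies share sequence, so these counts are uncertain. Of 19 tested housekeeping genes, 0 rose and 0 fell, with a median log2 fold change of -0.09. Among these 19 genes, 1 rose and 7 fell without CPI-0209 replicate 1. At an unadjusted p under 0.05, edgeR had 0 of them higher and 1 lower, and DESeq2 called 0 in either direction. In 17 lists edgeR called 0 members lower; in these, 0 to 5 members were lower at an unadjusted p under 0.05 and DESeq2 called 0 to 3.

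**Figure D4:**
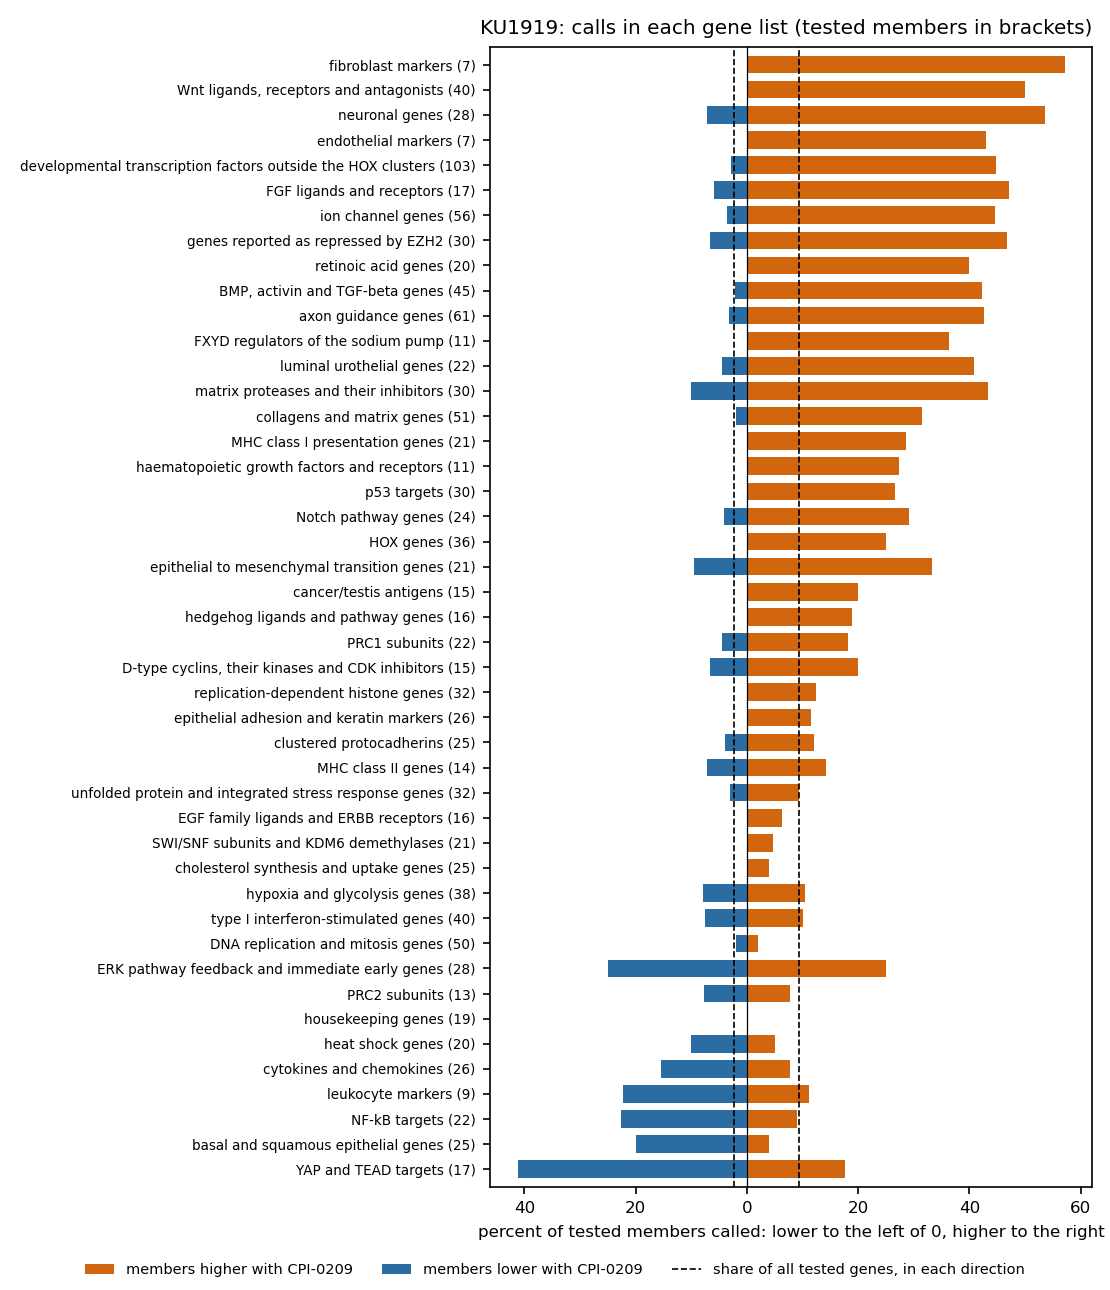
Percent of the tested members of each gene list that rose (orange, right of 0) or fell (blue, left of 0), with the number tested in brackets. Dashed lines mark the shares over all tested genes, 9.3% and 2.4%. Members with too few counts in both groups are left out, as in the developmental list, where 103 of 146 were tested. The highest share of risen members is in the 7 fibroblast markers, at 57.1%; the neuronal, Wnt, FGF, EZH2-repressed, developmental and ion channel lists lie between 44.6% and 53.6%, YAP and TEAD targets reach 41.2% lower, and replication and mitosis genes stay at 2% in each direction.

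Markers of cell types other than the labelled epithelium were checked. Of 7 tested fibroblast markers, 4 rose and 0 fell, with a median log2 fold change of 0.67. That is 57.1% and 0%, against 9.3% and 2.4% of all tested genes (18.4% and 14.3% without CPI-0209 replicate 1). Among these 7 genes, 5 rose and 0 fell without CPI-0209 replicate 1, and 2 to 4 rose and 0 fell when 1 of the 5 other libraries was left out. PDGFRA, a receptor of mesenchymal cells, had 5.03, 8.42 and 7.81 CPM in the 3 CPI-0209 libraries and 0.677, 0.672 and 0.828 CPM in the 3 DMSO libraries and rose by 3.29 ± 0.24 (adjusted p = 0.000314), and THY1 rose by 0.95 ± 0.09 (adjusted p = 0.000988). Of the fibroblast collagens and matrix genes, COL3A1, DCN and LUM stayed under 0.3 CPM in every library. The 6 defining fibroblast markers summed to 38.5 to 51.1 CPM with CPI-0209 and 24.6 to 25.9 CPM with DMSO. Of 9 tested leukocyte markers, 1 rose and 2 fell, with a median log2 fold change of 0.32. Among these 9 genes, 1 rose and 2 fell without CPI-0209 replicate 1, and 0 to 1 rose and 0 to 2 fell when 1 of the 5 other libraries was left out. CD3E was at 0 counts throughout, PTPRC stayed under 0.2 CPM, and the 5 defining leukocyte markers summed to 1.79 to 2.78 CPM with CPI-0209 and 1.21 to 1.63 CPM with DMSO. Of 7 tested endothelial markers, 3 rose and 0 fell, with a median log2 fold change of 0.85. Among these 7 genes, 4 rose and 0 fell without CPI-0209 replicate 1. The 4 defining endothelial markers summed to 0.573 to 0.73 CPM with CPI-0209 and 0.456 to 0.587 CPM with DMSO. The part of these genes in the matrix, mesenchymal and immune counts above was not tested.

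Genes chosen in the 7 other lines alone, without KU1919, were then looked up in it. Of 672 genes that rose at least 2-fold in at least 4 of the 7 other lines, 618 were tested in KU1919, where 368 rose and 4 fell, with a median log2 fold change of 0.81; of all tested genes 9.3% rose and 2.4% fell, with a median of 0.01. Their median log2 ratio to the DMSO mean was 0.57, 0.69 and 0.80 in the 3 CPI-0209 libraries. Of 92 tested genes that rose at least 2-fold in at least 6 of the other lines, 69 rose in KU1919, with a median of 1.07. Of 291 tested genes that fell in at least 5 of the other lines, 24 fell and 2 rose in KU1919, and the median was -0.10. Within that set the medians of the 3 CPI-0209 libraries were -0.03, -0.10 and -0.18, with replicate 1 nearest to 0.

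The size of the response was compared with the mean response of the 7 other lines in 1 fit of all 48 libraries. The KU1919 response was higher for 1862 of 19790 tested genes (9.41%) and lower for 2721 (13.7%). Without CPI-0209 replicate 1 the counts were 1129 and 1898, and with the transcript length trend removed 2861 and 2315. Leaving out DMSO replicate 2 gave 1184 higher genes. This test uses the spread between libraries. With each line as 1 value, so that the spread between lines counts, 3 genes were higher (0.0152%) and 0 lower (0%) by limma, with 912 genes at an unadjusted p under 0.05. The 3, named after their values were seen, were CBLN1, a synaptic organiser, with a fitted difference of 3.42 (adjusted p = 0.000113), NAP1L2, a nucleosome assembly protein of neurons, with 3.36 (adjusted p = 0.0308), and TBC1D9, with 2.84 (adjusted p = 0.017). The value of CBLN1 depends on the prior count, since its 3 DMSO counts in KU1919 all came from 1 library; with 73 counts over the CPI-0209 group the ratio was 26.6-fold with a 95% counting interval of 8.76 to 132. In KU1919, CBLN1 had 0.687 ± 0.0738 CPM with CPI-0209 and 0.024 ± 0.0416 CPM with DMSO, NAP1L2 had 3.06 ± 0.199 CPM with CPI-0209 and 0.147 ± 0.0696 CPM with DMSO and TBC1D9 had 5.13 ± 1.07 CPM with CPI-0209 and 0.597 ± 0.175 CPM with DMSO. All other differences below are statements about these 8 lines.

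Beside CT55, RFPL4A, EYA2 and FMN2, 4 further genes were named for the largest fitted difference above the mean of the other lines. For RFPL4A the rise was not particular to KU1919: it had 2.85 CPM with CPI-0209 and 0 CPM with DMSO in KU1919, against 2.29 CPM with CPI-0209 and 0.00721 CPM with DMSO in SW780. T24 had 4.65 CPM of it with CPI-0209 and 0.0519 CPM with DMSO, and TCCSUP 3.78 CPM with CPI-0209 and 0.0201 CPM with DMSO. EYA2 had 1.45 CPM with CPI-0209 and 0.00741 CPM with DMSO in KU1919, against 3.09 CPM with CPI-0209 and 0.043 CPM with DMSO in HT1376. FMN2 had 1.3 CPM with CPI-0209 and 0.0484 CPM with DMSO in KU1919, against 0.665 and 0.0287 CPM in SW780. Its level was lower with CPI-0209 in 639V (3.42 against 6.88 CPM with DMSO) and in TCCSUP (5.33 against 8.84 CPM). ONECUT3 was tested in all lines, and its difference from the mean of the others was 3.95 ± 0.33 (adjusted p = 5.89e-12): the log2 fold change was 4.87 in KU1919, against 0.26 to 2.54 in the 7 others. MAGEH1 differed by 4.81 ± 0.48 (adjusted p = 3.03e-10), with 5.31 in KU1919, against -0.26 to 0.88 in the 6 other lines where it was tested. Its value in KU1919 rests on a very low DMSO level of 0.0301 CPM. CEACAM6 differed by 6.21 ± 0.57 (adjusted p = 4.77e-11). In SW780 it had 37.3 CPM with CPI-0209 and 135 CPM with DMSO, a log2 fold change of -2.05, so that the highest level of any line was in one where it fell. FABP4 differed by 4.04 ± 0.59 (adjusted p = 1.67e-06), and its DMSO level was 0.331 CPM in KU1919, against 0.0335 to 254 CPM in the other lines. Its level was also higher with CPI-0209 in every other line but TCCSUP (6.73 against 8.46 CPM with DMSO). In HT1376 it had 9.16 CPM with CPI-0209 and 1.93 CPM with DMSO.

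Among genes whose response was smaller in KU1919, the DMSO level was set beside the fold change, of which it is a part. All 8 named (FXYD6, GATA4, PRIMA1, HCN4, CHST1, LINGO1, ATRNL1 and KNDC1) had a higher DMSO level in KU1919 than in any of the 7 other lines, on the scale of the 48-library fit. FXYD6, a regulator of the sodium pump, had 18.3 CPM with CPI-0209 and 8.79 CPM with DMSO in KU1919, against DMSO levels of 0 to 1.38 CPM in the other lines. Its log2 fold change was 1.00 in KU1919, against 3.69 to 7.57 in the 6 others where it was tested, a difference of -4.36 ± 0.30 (adjusted p = 6.45e-14). Fitted values of lines near 0 counts with DMSO depend on the prior count. GATA4, a heart and endoderm transcription factor, had 15.4 CPM with CPI-0209 and 11.2 CPM with DMSO in KU1919, against at most 1.96 CPM with DMSO elsewhere, and differed by -4.24 ± 0.43 (adjusted p = 1.61e-09). LINGO1, a neuronal membrane protein, had 14.1 CPM with CPI-0209 and 3.33 CPM with DMSO in KU1919, against at most 0.287 CPM with DMSO elsewhere. It rose in KU1919 and in all 7 others, with a difference of -2.83 ± 0.29 (adjusted p = 1.21e-09). HCN4, a pacemaker channel, differed by -3.31 ± 0.43 (adjusted p = 3.00e-07), with a DMSO level of 1.39 CPM in KU1919 and at most 0.778 CPM in the other lines. In each of these 8 genes the direction was upward in KU1919 too, and the difference lies in size. Within KU1919 the rise of GATA4 kept its call in 7 of 14 alternatives (adjusted p up to 0.141). That of HCN4 kept its call in 11 of 14 (adjusted p up to 0.0583).

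**Figure D5:**
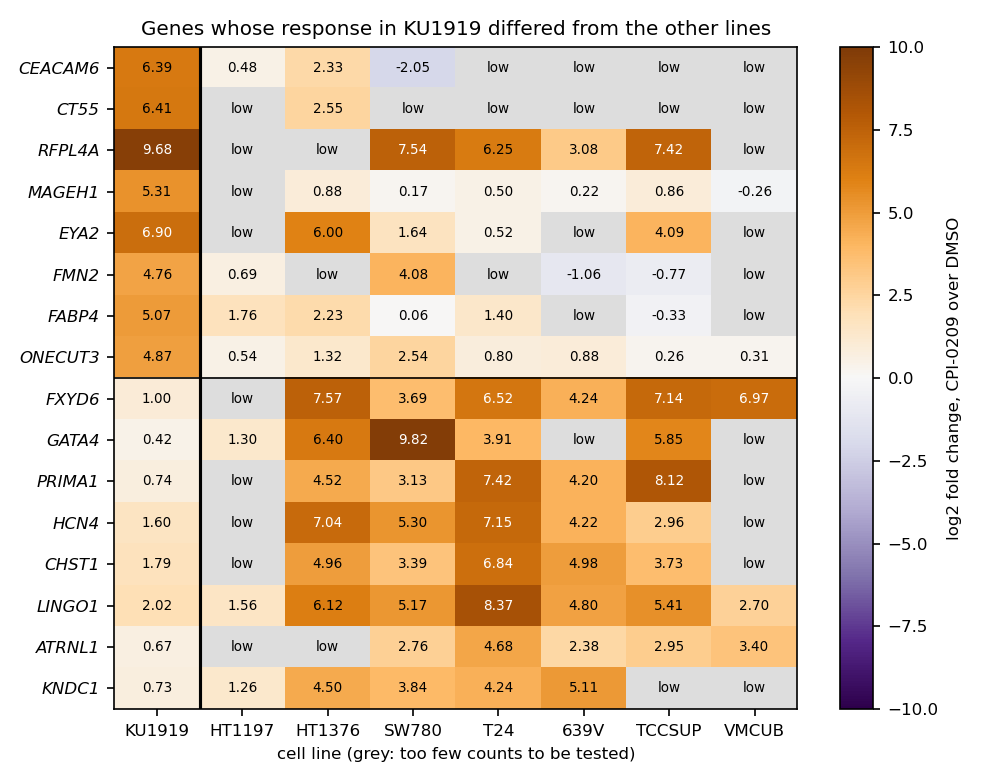
Log2 fold change of CPI-0209 over DMSO for the 8 named genes with a larger (top) and the 8 with a smaller response in KU1919 (bottom), with KU1919 in the left column and the 7 other lines to its right. ONECUT3 reads 4.87 in KU1919 and 0.26 to 2.54 elsewhere, FXYD6 reads 1.00 in KU1919 and 3.69 to 7.57 elsewhere, and grey cells had too few counts to be tested; fitted values of genes with 0 to 3 DMSO counts depend on the prior count.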

How the data were processed

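RNA from KU1919 cells was sequenced in 6 libraries, within a series of 48. Per the submitters' processing notes, STAR 2.7.3a, RSEM 1.3.1 and the hg38 build were used; the strand setting of the counting was not given in the sources used here. The deposited values are whole-number counts per gene, named by Ensembl ID, and were used as deposited. Totals were 27267344 to 44971614 counts per KU1919 library and 26481418 to 50916911 over the series; counting intervals and floors cover counting error only.

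Genes were filtered with filterByExpr, scaled by TMM and tested with edgeR 4.0.16 (robust quasi-likelihood fit, 6 libraries, 4 residual degrees of freedom, Benjamini-Hochberg threshold 0.05) in R 4.3.3. SEs were derived from the F statistic and the fitted log2 change. Genes with 0 DMSO counts were given a bound against 3 counts over the group, and those with 1 to 3 a ratio with an exact 95% interval. The response of KU1919 was compared with the mean of 7 other lines in a fit of 48 libraries, and with limma 3.58.1 on 1 value per line. Alternatives used RLE factors, library totals, DESeq2 1.42.0, voom quality weights, no filter, all libraries, a replicate block, each library left out and, chosen after seeing the data, a transcript length correction. Named genes were the PRC2 core, the 15 largest changes in each direction that did not overlap between groups, called members of gene lists, the largest differences between lines, genes in which CPI-0209 replicate 1 stood apart, and the 5 called genes with the most counts in each direction; cell type markers are given as well. Members and lists were chosen with earlier results of these data known. On data simulated with a trended spread (16038 genes) the KU1919 fit recovered 80% of 2-fold and 37% of 1.5-fold changes, with 10 of 127 calls false; with a gene-wise spread (16028 genes) it recovered 75% and 20%, with 17 of 112 calls false. A few genes that the naming rule selects are not reported here.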

Additional observations from a re-analysis of the deposited data

Results flagged for a closer look

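For 16 genes the response to CPI-0209 differed between KU1919 and the mean of the 7 other lines by the test of the difference itself (edgeR's quasi-likelihood test, 48 libraries). The genes were chosen as the largest such differences, so their size is a description. The response in KU1919 exceeded the mean of the others on the log2 scale by 6.21 for CEACAM6, 5.55 for CT55, 5.26 for RFPL4A, 4.81 for MAGEH1, 4.56 for EYA2, 4.12 for FMN2, 4.04 for FABP4 and 3.95 for ONECUT3. It was smaller by a difference of -4.36 for FXYD6, -4.24 for GATA4, -3.84 for PRIMA1, -3.31 for HCN4, -2.83 for CHST1, -2.83 for LINGO1, -2.7 for ATRNL1 and -2.7 for KNDC1. For all 16 the call of the difference held under every alternative except with the line as the unit, where none was called. Fitted differences of CEACAM6, CT55, RFPL4A and EYA2 rest on 0 to 3 DMSO counts in KU1919 and depend on the prior count. Those of MAGEH1 and FMN2 rest on DMSO levels of 0.0301 and 0.0484 CPM in KU1919, which are also very low. RFPL4A also rose in SW780, T24, 639V and TCCSUP, so its rise is not particular to KU1919. Levels of FMN2, EYA2 and CT55 were higher with CPI-0209 in some other lines too. FMN2 had 0.665 CPM with CPI-0209 and 0.0287 CPM with DMSO in SW780. In HT1376, EYA2 had 3.09 CPM with CPI-0209 and 0.043 CPM with DMSO, and CT55 had 1.47 and 0.244 CPM. Further levels are given above, and no cause was tested.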

How the results depend on the processing

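Of 222 named genes called in the 6-library fit, 138 kept the call under every alternative, 84 lost it under at least 1, and 0 changed direction. The count of higher genes was 1510; it was 2731 with voom quality weights, 2601 with all 48 libraries in 1 fit, and 858 to 3047 when each library was left out. The count of lower genes was 389; it was 817 with DESeq2, 1878 with voom quality weights, 1995 with all 48 libraries, 856 with the transcript length trend removed, and 113 to 2375 when each library was left out. Calls were 79.5% upward, against 86% with library totals, 66.8% with DESeq2, 59.3% with voom quality weights and 56.6% with all 48 libraries. Genes at least 2-fold lower numbered 33, against 50 with voom quality weights, 67 with all 48 libraries and 26 to 57 when each library was left out. Members of any list gave 458 higher and 202 lower calls without CPI-0209 replicate 1, and 107 lower with the length trend removed. For the difference from the other lines, 3 genes were higher and 0 lower with the line as the unit, against 1862 and 2721; 2861 were higher with the length trend removed, and 1129 to 2457 higher and 1898 to 3459 lower when each KU1919 library was left out. Its share of upward calls was 40.6%, against 55.3% with the length trend removed. The causes were not tested.

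The labels do not say that replicate numbers pair the libraries. Same-numbered deviations from the group mean correlated at 0.07, -0.04 and -0.04, against -0.06 to 0.10 for different numbers. With 3 libraries per group and CPI-0209 replicate 1 apart from its group, these values cannot decide whether libraries were paired. With the replicate number as a block, 1289 genes were higher and 278 lower, and the difference gave 1278 and 2346. The length correction was chosen after seeing the data. A check of promoter composition was void, since 79.2% of tested protein-coding genes had a sequence. At this size, simulated 1.5-fold changes were recovered for 37% of genes with a trended and 20% with a gene-wise spread, so smaller changes may go uncalled.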
